A study of Mus musculus with 2 samples.

Results

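The genes that carry fatty acids from the blood into vascular cells, and the protein that coats the droplets in which lipid is stored, were followed across the cell types of the aorta in 2 single-cell RNA-seq libraries. The group holds 7 genes of the 32285 in the matrices (Gpihbp1, Lpl, Cd36, Fabp4, Fabp5, Rbp7 and Plin2), taken by their symbols, and each symbol matched 1 row. Both libraries came from aortas of mice lacking ApoE, a lipoprotein component needed to clear cholesterol-rich remnants, on a C57BL/6 background and fed a Western diet. For the WT group (ApoE-/-) no second deletion is named in the labels. The EC-iCD45KO group, also ApoE-/-, carried a tamoxifen-inducible deletion of CD45, the phosphatase encoded by Ptprc, specific to endothelial cells (EC). Cells were enriched with magnetic beads against CD31, an endothelial surface protein, and each group had 1 library. The promoter that drives the deletion, whether WT mice received tamoxifen, the age and number of the animals and any pooling are not given in the sources used here. No difference between the groups had a replicate check, and a difference in preparation cannot be told apart from a difference in genotype.

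Lipoprotein triglyceride is broken down on the luminal face of capillaries. Lpl encodes lipoprotein lipase, which is made mainly by parenchymal cells and macrophages, and Gpihbp1 encodes the anchor with which capillary endothelium binds that enzyme and carries it to the lumen. The fatty acids released are taken up through Cd36, a scavenger receptor and fatty acid translocase that also takes up oxidised lipoproteins in macrophages. Inside the cell they are bound by the carriers Fabp4 and Fabp5, and Rbp7 encodes a related retinoid carrier of the endothelium. Plin2 encodes perilipin 2, a coat protein of lipid droplets that is abundant in lipid-loaded macrophages, the foam cells of the atherosclerotic wall.

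The WT library held 39849 barcodes and 92058043 UMIs (unique molecular identifiers, each marking 1 captured RNA molecule), and the EC-iCD45KO library 30278 barcodes and 88967918 UMIs. Of these barcodes 340 occurred in both libraries. After filtering, 35553 and 26064 cells remained, 303 and 287 of them with such a barcode. Clusters were named from marker genes that excluded the 7 genes, and 13 classes were named. EC-like cells numbered 3714 in WT and 3990 in EC-iCD45KO, with all 14 EC markers detected in both, and macrophage-like cells, monocytes included, numbered 3352 and 9684. A further 10252 and 2722 cells stayed unnamed. Ptprc stood at 296 CPM (counts per 1000000 UMIs of the same cells) in WT and 110 CPM in EC-iCD45KO in EC-like cells. It was also lower in macrophage-like cells, at 492 and 282 CPM, and in fibroblast-like cells, which should lack CD45, at 308 and 129 CPM, so these counts are no clean check of the deletion.

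RNA of other cell types was present in the EC-like droplets and differed between the libraries. The 8 B-cell markers summed to 2092 CPM in EC-like cells from WT and 659 CPM in those from EC-iCD45KO, and the 10 T/NK markers to 377 and 60.9 CPM. The 10 macrophage markers went the other way, at 2812 and 3647 CPM, none of them at 0. The 8 adipocyte markers were close to 0, at 9.64 CPM in WT, with Adrb3 at 0, and 28.3 CPM in EC-iCD45KO. No adipocyte-like class was found. B-like cells, which should hold little of the 7 genes, serve below as a guide to free RNA. Intervals in parentheses are exact 95% intervals that cover counting error only. Paired values are given with WT before EC-iCD45KO.

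Across the classes the 7 genes fell into a set highest in endothelium and a set highest in macrophages. Gpihbp1, Cd36, Fabp4 and Rbp7 were highest in EC-like cells in both libraries, and Fabp5 and Plin2 were highest in macrophage-like cells. Lpl was highest in EC-like cells with macrophage-like cells 1.47-fold below in WT and 1.5-fold below in EC-iCD45KO. EC-like cells held 74.2% of all Gpihbp1 UMIs of the analysed WT cells and 80.6% of those in EC-iCD45KO, while macrophage-like cells held 50.7% and 72.4% of the Plin2 UMIs. Of the Lpl UMIs, macrophage-like cells held 32.5% and 55.8%, and EC-like cells 29.7% and 22.5%.

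**Figure D1:**
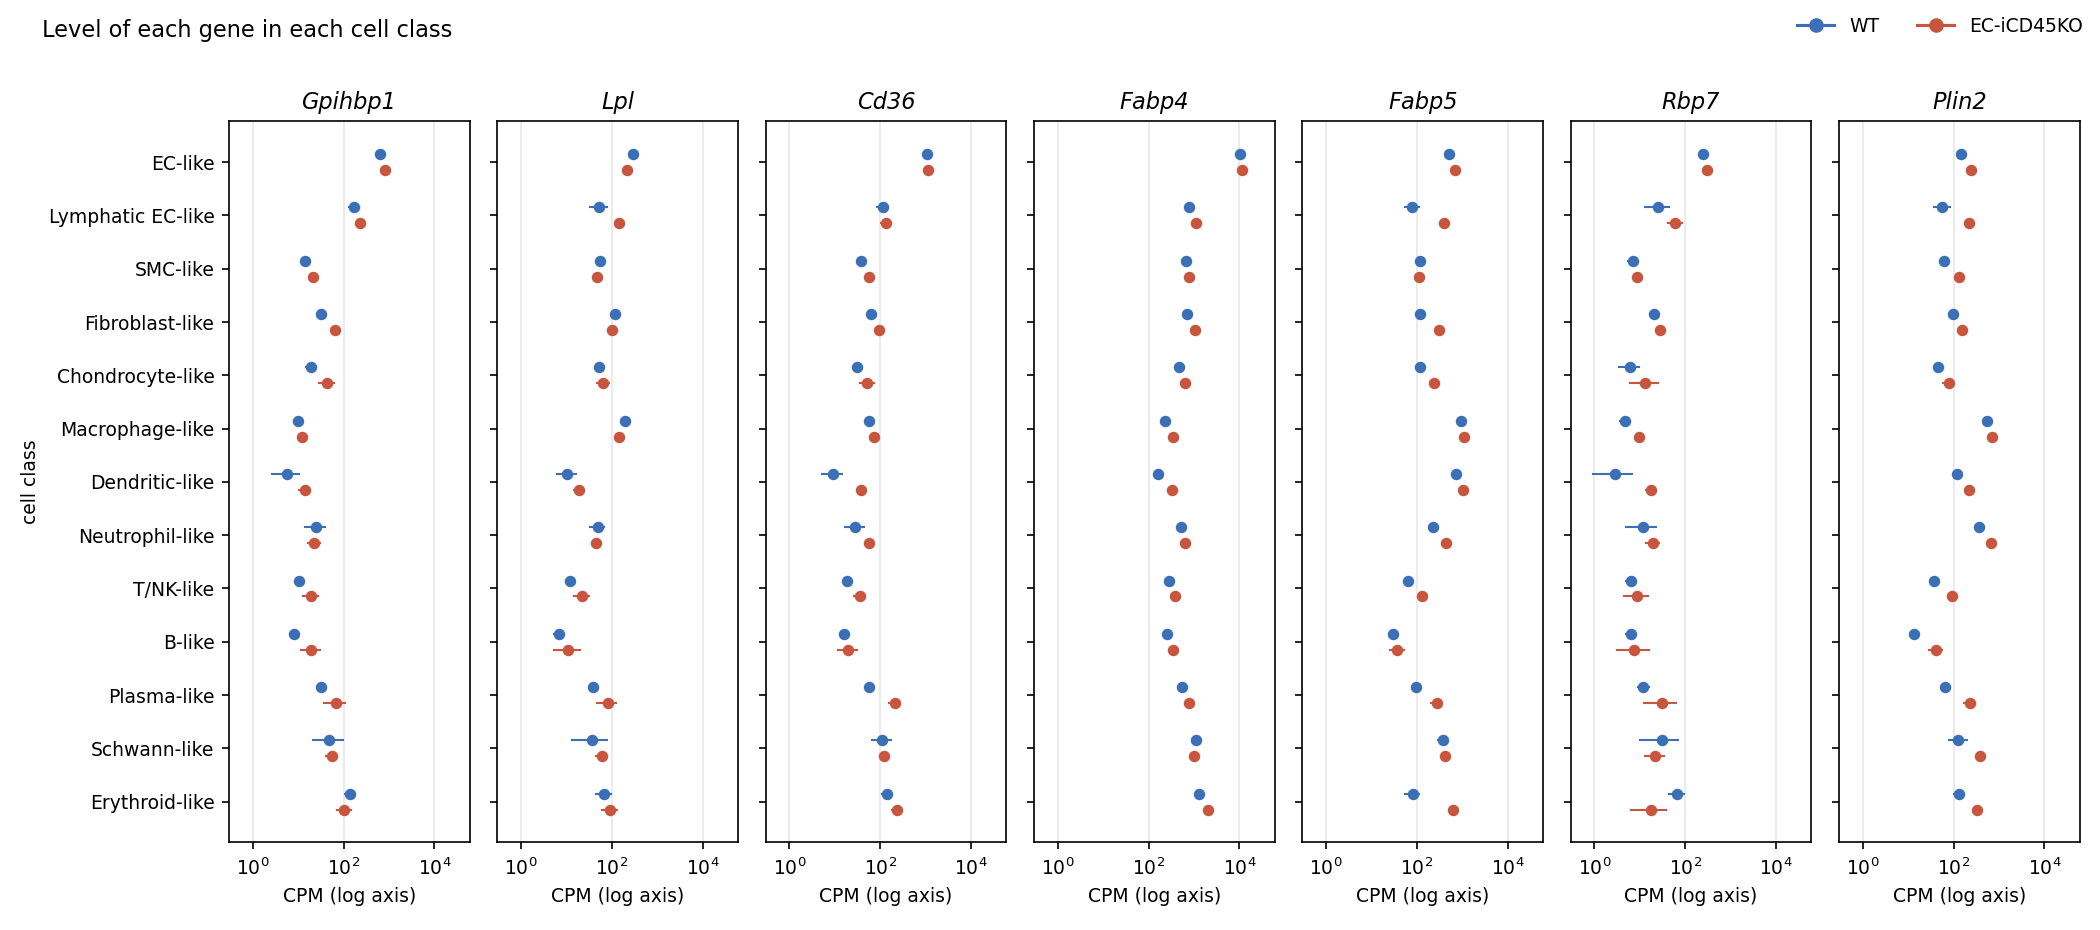
Level of the 7 genes in the 13 named cell classes, in CPM on a log axis, with 1 point per library (blue WT, red EC-iCD45KO) and exact 95% Poisson intervals. Fabp4 reached 10479 and 11201 CPM in EC-like cells and stayed at 2037 CPM or less in every other named class, while Fabp5 was highest in macrophage-like cells at 919 and 1096 CPM.

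Gpihbp1 (ENSMUSG00000022579, chromosome 15, 75596628 to 75599481, plus strand, GRCm38) stood in EC-like cells at 636 CPM (618 to 654) for WT and 823 CPM (805 to 841) for EC-iCD45KO. Lymphatic EC-like cells followed at 167 and 231 CPM, and erythroid-like cells at 138 and 104 CPM. The level in EC-like cells was 80.5-fold (66.3 to 98.7) that of B-like cells in WT and 41.9-fold (26.5 to 70.7) in EC-iCD45KO. In macrophage-like cells Gpihbp1 was at 9.89 and 12.4 CPM, against 7.90 and 19.6 CPM in B-like cells, which could not be told apart within counting error in either library. After thinning each cell to 1000 UMIs, 29.5% of EC-like cells in WT and 34.0% in EC-iCD45KO had a Gpihbp1 UMI, and 0.837% and 2.25% of B-like cells. Thinning left out 1190 and 1451 EC-like and 403 and 25 B-like cells. The unthinned shares were 35.6% and 38.2% in EC-like and 1.71% and 4.76% in B-like cells, at median depths of 1348 and 1285 UMIs in EC-like and 2007 and 2557 UMIs in B-like cells.

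Lpl (ENSMUSG00000015568, chromosome 8, 68880491 to 68907448, plus strand) was found above the B-like level in several classes. It stood at 290 and 216 CPM in EC-like, 197 and 144 CPM in macrophage-like, 118 and 99.9 CPM in fibroblast-like and 53.9 and 47.8 CPM in smooth-muscle-like (SMC-like) cells. Lymphatic EC-like cells gave 51.4 and 146 CPM. In EC-iCD45KO the lymphatic EC-like and the macrophage-like level could not be told apart, and both lay below the EC-like level. In B-like cells Lpl was at 6.68 and 10.9 CPM. Fibroblast-like cells held 17.7-fold (14.1 to 22.5) and 9.15-fold (4.94 to 19.2) that level.

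Cd36 (ENSMUSG00000002944, chromosome 5, 17781690 to 17888801, minus strand) stood at 1074 and 1118 CPM in EC-like cells and at 57.2 and 71.7 CPM in macrophage-like cells. The macrophage-like level was 3.52-fold (3.02 to 4.12) the B-like level in WT and 3.65-fold (2.31 to 6.17) in EC-iCD45KO. EC-like cells held 10.3 and 9.98 Cd36 UMIs per 100 Fabp4 UMIs, macrophage-like cells 25.2 and 21.1, and the foamy subtype described below 69.5 and 55.1. B-like cells gave 6.37 and 5.77 per 100, SMC-like cells 5.51 and 7.06, and fibroblast-like cells 9.11 and 9.15. The plasma-like class was at 10.6 and 26.3, the last on 47 Cd36 UMIs. The part of free RNA in these ratios was not tested.

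Fabp4 (ENSMUSG00000062515, chromosome 3, 10204088 to 10208576, minus strand) was found in every class. It stood at 10479 and 11201 CPM in EC-like cells and still at 255 and 341 CPM in B-like cells, where 18.9% and 26.4% of thinned cells had a UMI, against 82.8% and 88.8% of EC-like cells. In macrophage-like cells its level was 0.891-fold (0.847 to 0.936) that of B-like cells in WT and 0.999-fold (0.892 to 1.12) in EC-iCD45KO, so the macrophage-like class as a whole held no more Fabp4 than the guide to free RNA. Rbp7 (ENSMUSG00000028996, chromosome 4, 149449687 to 149454978, minus strand) stood at 248 and 303 CPM in EC-like cells. It was at 4.75 and 9.65 CPM in macrophage-like and 6.30 and 7.64 CPM in B-like cells, which could not be told apart.

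Fabp5 (ENSMUSG00000027533, chromosome 3, 10012548 to 10016607, plus strand) stood at 919 and 1096 CPM in macrophage-like, 742 and 1020 CPM in dendritic-like, 518 and 684 CPM in EC-like and 384 and 414 CPM in Schwann-like cells. B-like cells were at 29.2 and 37.1 CPM. Macrophage-like cells exceeded dendritic-like cells by 1.24-fold (1.17 to 1.31) and 1.07-fold (1.04 to 1.11), and dendritic-like cells took the first place in 2 of 10 recomputations (5 other processing choices in each library). Plin2 (ENSMUSG00000028494, chromosome 4, 86648386 to 86670060, minus strand) stood at 536 and 686 CPM in macrophage-like and 366 and 657 CPM in neutrophil-like cells, and EC-like cells were at 144 and 244 CPM. Neutrophil-like cells took the first place in 1 of 10 recomputations. Schwann-like cells gave 128 and 390 CPM. In B-like cells Plin2 was at 13.4 and 41.5 CPM. None of the 7 genes overlaps another annotated gene of the matrices.

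Within the EC-like class several of the 7 genes differed between subtypes. The sub-clusters were formed without the 7 genes, without the other fatty acid genes listed and without genes that were higher in another named class. Lymphatic EC-like cells were not counted as another class for EC-like cells, nor dendritic-like cells for macrophage-like cells. Capillary EC-like cells (sub-cluster EC 5, led by Timp4, Car4, Rgcc and Cd300lg) numbered 394 in WT and 448 in EC-iCD45KO and held the highest levels of Gpihbp1, Lpl, Cd36, Fabp4 and Fabp5 among the 9 sub-clusters with at least 50 cells in each library. Rbp7 departed from this and was highest in an arterial EC-like sub-cluster, EC 8, whose next best marker list was the capillary one.

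**Figure D2:**
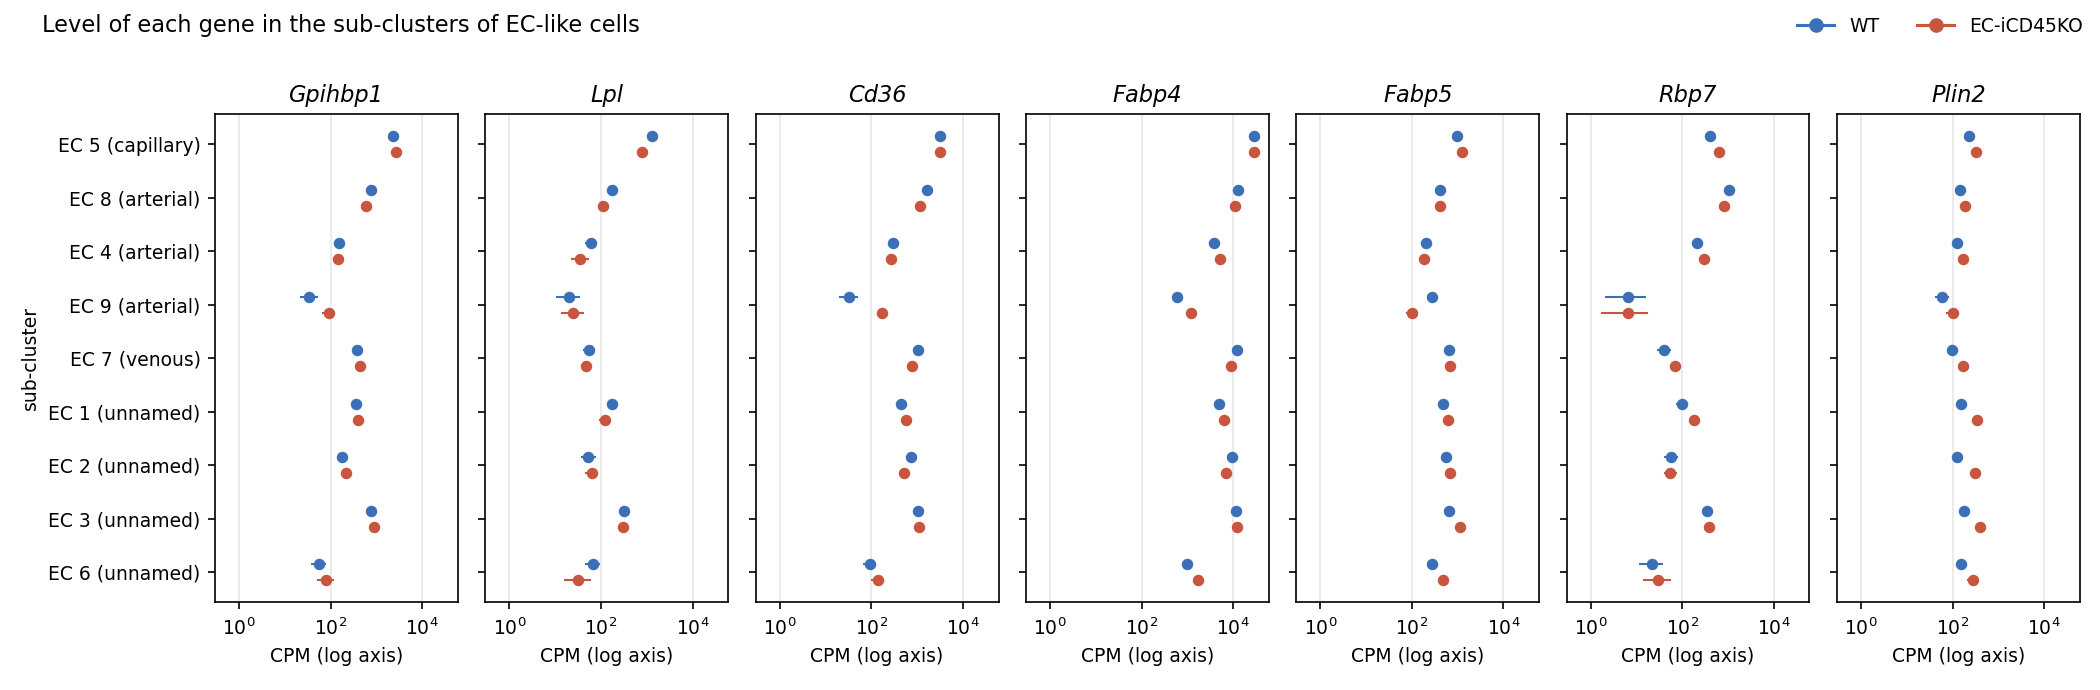
Level of the 7 genes in the 9 sub-clusters of EC-like cells with at least 50 cells per library, in CPM on a log axis (blue WT, red EC-iCD45KO, exact 95% Poisson intervals). Gpihbp1, Lpl, Cd36 and Fabp4 peak in the capillary sub-cluster EC 5, Rbp7 peaks in the arterial sub-cluster EC 8 at 1026 and 824 CPM, and EC 6 and EC 9 hold the lowest Gpihbp1, Cd36, Fabp4 and Rbp7.

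Gpihbp1 reached 2249 CPM (2166 to 2334) in the capillary EC-like cells of WT and 2670 CPM (2596 to 2747) in those of EC-iCD45KO. That was 7.46-fold (6.88 to 8.09) and 8.22-fold (7.62 to 8.87) the arterial EC-like level of 302 and 325 CPM. Venous EC-like cells stood at 374 and 428 CPM. After thinning, 83.3% of capillary EC-like cells in WT and 86.5% in EC-iCD45KO had a Gpihbp1 UMI.

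Lpl had the largest folds of the 7 genes between capillary and arterial and between capillary and venous EC-like cells, in both libraries. It stood at 1289 CPM (1226 to 1354) and 796 CPM (755 to 838) in capillary EC-like cells, 81.9 and 65.3 CPM in arterial EC-like cells and 54.2 and 46.8 CPM in venous EC-like cells. Capillary exceeded venous EC-like cells 23.8-fold (18.5 to 31.0) and 17.0-fold (13.9 to 20.9). Adipocytes and cardiomyocytes are abundant sources of Lpl next to capillaries, and their markers were looked up in the same cells. The 8 adipocyte markers summed to 17.1 and 45.6 CPM in capillary EC-like cells, with Lep and Adrb3 at 0 in both libraries, and all 6 cardiomyocyte markers were at 0. The part of adipocyte RNA in the Lpl level was not tested. Among thinned capillary EC-like cells, Lpl was found in 65.9% of the 290 WT cells with a Gpihbp1 UMI and in 51.7% of the 58 without. In EC-iCD45KO the shares were 58.1% of 365 and 56.1% of 57.

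Cd36 stood at 3245 and 3205 CPM in capillary EC-like cells, 1039 and 760 CPM in venous and 620 and 631 CPM in arterial EC-like cells. Fabp4 stood at 28409 and 28112 CPM in capillary EC-like cells, so that nearly 3 of every 100 UMIs of these cells were Fabp4, and 99.7% and 99.8% of the thinned cells had one. It was at 11856 and 9046 CPM in venous and 5630 and 6607 CPM in arterial EC-like cells. The capillary to arterial fold of Fabp4 was 5.05 in WT and 4.25 in EC-iCD45KO, against 3.34 and 4.80 for Fabp5. Fabp5 was at 968 and 1248 CPM in capillary, 635 and 682 CPM in venous and 290 and 260 CPM in arterial EC-like cells.

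Arterial EC-like cells were not uniform. They came from 3 sub-clusters, of which EC 8 was led by Nebl, Sema3g, Hey1 and Sox17, EC 4 by Igf2, Cytl1, Gkn3 and Klk10, and EC 9 by Sfrp1, Frmd5, Eln and Mgp. In EC 8 the mean log2 excess was 1.77 for the arterial markers and 1.11 for the capillary markers, its next list. Rbp7 stood at 1026 CPM (956 to 1100) and 824 CPM (770 to 881) in EC 8, 214 and 293 CPM in EC 4 and 6.55 and 6.65 CPM in EC 9. The last value rested on 5 and 4 UMIs. EC 8 exceeded the capillary EC-like cells in Rbp7 by 2.49-fold (2.22 to 2.78) and 1.30-fold (1.19 to 1.42). Venous EC-like cells were low, at 40.6 and 68.2 CPM, 9.85-fold and 6.60-fold below the arterial EC-like level. EC 8 also held Gpihbp1, at 758 and 597 CPM, and Cd36, at 1607 and 1169 CPM. Within EC 8, thinned cells with an Rbp7 UMI had a Gpihbp1 UMI more often than those without, at 60.9% of 115 against 31.0% of 116 cells in WT and 56.6% of 99 against 20.3% of 158 in EC-iCD45KO. In capillary EC-like cells the same shares were 83.7% of 92 and 83.2% of 256 in WT and 88.5% of 139 and 85.5% of 283 in EC-iCD45KO.

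EC 9 and the unnamed EC 6, both led by Sfrp1, held the lowest levels of Gpihbp1, Cd36, Fabp4 and Rbp7 among the 9 sub-clusters in both libraries. The cells of EC 9 were the deepest of the 9, with median depths of 4631 and 5321 UMIs. The 130 and 86 cells of EC 9 held Gpihbp1 at 34.0 and 89.8 CPM, Cd36 at 32.7 and 173 CPM and Fabp4 at 608 and 1213 CPM. Gpihbp1 in capillary EC-like cells was 66.1-fold (45.0 to 101) that level in WT and 29.7-fold (22.7 to 39.6) in EC-iCD45KO. The Fabp4 level of EC 9 lay below that of SMC-like cells, 680 CPM, in WT and above theirs, 792 CPM, in EC-iCD45KO. Fabp5 was at 271 and 103 CPM in EC 9. Plin2 varied least among arterial, venous and capillary EC-like cells, from 96.5 to 229 CPM in WT and from 162 to 324 CPM in EC-iCD45KO, with the highest level in capillary EC-like cells in each library.

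Within the macrophage-like class Fabp5 and Lpl separated the subtypes. Foamy Trem2 macrophage-like cells (sub-cluster Macrophage 7), a subtype named after the lipid-loaded macrophages of plaques, numbered 80 in WT and 125 in EC-iCD45KO. Their leading genes included Gpnmb, Mmp12, Ctsl and Spp1, and also Folr2, a marker of the resident list. Their mean log2 excess was 2.05 for the foamy list and -0.4 for the resident list. Fabp5 stood at 5366 CPM (5201 to 5534) and 7167 CPM (7020 to 7318) in the foamy cells, the highest of all sub-clusters of both classes. Resident macrophage-like cells (Macrophage 4) were at 101 and 105 CPM and monocyte-like cells (Macrophage 5) at 279 and 159 CPM. The foamy cells thus exceeded the resident ones in Fabp5 by 53.1-fold (46.7 to 60.6) and 68.3-fold (63.4 to 73.6).

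**Figure D3:**
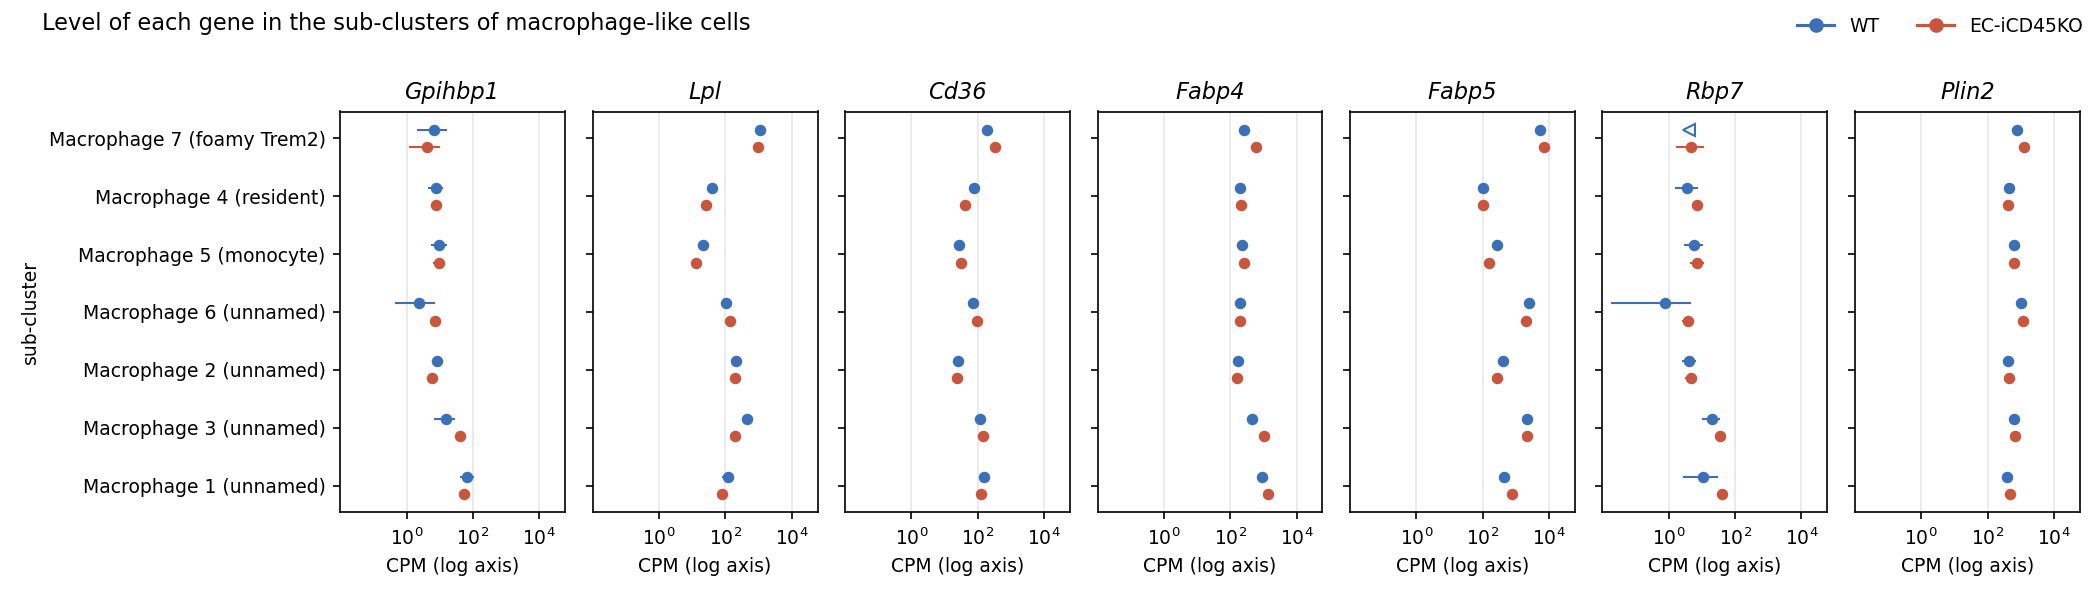
Level of the 7 genes in the 7 sub-clusters of macrophage-like cells, in CPM on a log axis (blue WT, red EC-iCD45KO, exact 95% Poisson intervals). The open triangle marks 0 UMIs and is drawn at the level of 3 UMIs. Fabp5 and Lpl are highest in Macrophage 7, while Gpihbp1 and Rbp7 are highest in Macrophage 1 and Macrophage 3, whose leading genes include smooth muscle or matrix genes.

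Lpl stood at 1084 and 943 CPM in foamy cells, 40.7 and 26.1 CPM in resident and 21.9 and 13.1 CPM in monocyte-like cells. The foamy to resident fold was 26.6 (21.6 to 33.1) and 36.1 (31.0 to 42.2). The foamy Lpl level was 0.841-fold the capillary EC-like level in WT and 1.18-fold in EC-iCD45KO. Cd36 was at 186 and 327 CPM in foamy and 76.2 and 40.2 CPM in resident cells. Gpihbp1 rested on 5 UMIs in each library and Rbp7 on 0 and 6 UMIs in foamy cells, and 0 UMIs allow up to 4.00 CPM (3 UMIs of the cells' total). The 14 EC markers summed to 62.7 and 66.6 CPM in foamy cells, against 5396 and 6362 CPM in EC-like cells.

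Plin2 had a flatter profile among macrophages than Fabp5 or Lpl. It stood at 766 and 1245 CPM in foamy, 443 and 407 CPM in resident and 631 and 633 CPM in monocyte-like cells. An unnamed sub-cluster of 210 and 1203 cells (Macrophage 6) was led by Cxcl3, Arg1, Clec4n and Acp5. Its mean log2 excess was 0.49 for the monocyte list and 0.46 for the foamy list. Macrophage 6 came near the foamy cells in Plin2, at 996 and 1130 CPM, with less Lpl, at 104 and 136 CPM. Its Plin2 was 1.30-fold (1.18 to 1.44) the foamy level in WT and 0.908-fold (0.861 to 0.958) in EC-iCD45KO. Fabp5 stood at 2503 and 1996 CPM there, 24.8-fold and 19.0-fold the resident level. Within Macrophage 6, thinned cells with and without a Fabp5 UMI had Plin2 about equally often, at 58.3% and 55.1% in WT and 64.3% and 62.3% in EC-iCD45KO.

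The 7 genes thus followed separate patterns over types, which was put as a correlation of log2(CPM + 10) over 56 values, 1 per class or sub-cluster and library, among 7738 genes that reached 50 CPM in at least 1 of them. The values share libraries, free RNA and depth, so r is a description. Gpihbp1, Fabp4 and Rbp7 went with each other, at r between 0.89 and 0.95, and Cd36 with them at 0.83 to 0.92. Fabp5 went with Plin2 (0.72) and Lpl (0.70), and Gpihbp1 with Plin2 at -0.13. The genes most like Gpihbp1 were Ablim3, Ushbp1, Cyyr1, Tcf15 and Depp1, all at 0.95. Those most like Fabp4 were Mgll (0.96), Tcf15, C1qtnf9 and Gpihbp1 (0.95) and Depp1 (0.94), and those most like Cd36 were Fabp4 (0.92) and Pparg, Tcf15, C1qtnf9 and Ccdc85a (0.89). Rbp7 was most like Tcf15 (0.93) and Clic5, Btnl9, Tbx3 and Depp1 (0.92). Plin2 was most like Lyz2 (0.94), Pla2g7 (0.93), Fcgr3 (0.92), Hmox1 and Atp6v0c (0.91). Fabp5 was most like Lipa (0.79), Dnase1l1 and Gpnmb (0.75) and Gpr137b and Syngr1 (0.74), and Lpl less closely like any gene, with Dhrs3 (0.77), Cyb5r1 (0.76), Lipa (0.74), Mtmr10 (0.73) and Fabp5 (0.70).

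The RefSeq table of promoters (GRCm38.p6) held 3 of the 7 genes. All 3 are shown. Cd36 and Rbp7 followed each other over the types (r of 0.83), while Plin2 followed Cd36 at 0.17. The 250 bases before the annotated start are given on the gene's strand, for Cd36 at chr5:17835897-17836146, for Rbp7 at chr4:149454969-149455218 and for Plin2 at chr4:86670060-86670309, all on the minus strand. The start used for Cd36 lies inside the gene as given above, so it is 1 of several starts. Capitals mark matches, on either strand, to AGGTCA, the core that many nuclear receptors bind and here found as its reverse complement, and to CCAAT. No motif overlaps another.
Cd36: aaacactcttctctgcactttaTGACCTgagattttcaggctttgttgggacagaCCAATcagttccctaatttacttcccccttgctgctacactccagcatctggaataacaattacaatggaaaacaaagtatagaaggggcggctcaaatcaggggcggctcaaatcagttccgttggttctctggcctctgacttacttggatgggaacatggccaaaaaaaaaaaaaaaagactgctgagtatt
Rbp7: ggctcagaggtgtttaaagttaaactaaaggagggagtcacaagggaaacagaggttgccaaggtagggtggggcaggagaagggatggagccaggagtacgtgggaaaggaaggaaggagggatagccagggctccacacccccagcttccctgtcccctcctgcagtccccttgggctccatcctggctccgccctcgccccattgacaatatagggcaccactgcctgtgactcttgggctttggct
Plin2: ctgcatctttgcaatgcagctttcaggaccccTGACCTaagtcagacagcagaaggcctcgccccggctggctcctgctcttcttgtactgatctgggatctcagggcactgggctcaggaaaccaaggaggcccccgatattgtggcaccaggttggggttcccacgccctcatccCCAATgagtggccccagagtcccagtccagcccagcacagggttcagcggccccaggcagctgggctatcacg
Cd36 and Plin2 each held 1 match to AGGTCA, starting 228 and 218 bases before the start, and 1 to CCAAT, 195 and 73 bases before it. Rbp7 held none. Among 32851 promoter windows of this length, 14% held AGGTCA and 33.8% held CCAAT. None of the 3 windows held TATAAA, found in 12.4% of all windows. A match is a match of letters only.

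The libraries were then compared within EC-like cells. Plin2 and Lpl moved in opposite directions there, and Cd36 and Fabp4 were nearly level in the class as a whole. Plin2 stood at 144 and 244 CPM, for a log2 ratio of EC-iCD45KO over WT that came to 0.76 (0.66 to 0.87), and Lpl at 290 and 216 CPM, a difference of -0.42 (-0.51 to -0.34) on that scale. Fabp5 gave 0.40 (0.35 to 0.46), Gpihbp1 0.37 (0.32 to 0.42), Rbp7 0.29 (0.21 to 0.37), Fabp4 0.10 (0.08 to 0.11) and Cd36 0.06 (0.02 to 0.10). The last 2 are no stable direction, since Cd36 turned to between -0.11 and -0.01 under 4 of 12 alternatives and Fabp4 to -0.06 and -0.01 under 2. The other 5 genes kept their sign under all 12. The median of the 7 genes was 0.29, against -0.01 over the 10966 genes whose mean reached 5 CPM. The median of the 7 lay above that of all genes in each of the 13 named classes, at 0.42 in B-like, 0.90 in T/NK-like and 1.38 in plasma-like cells. In the same cells the 14 EC markers summed to 5396 and 6362 CPM, 13 of them higher in EC-iCD45KO, and the 8 B cell markers to 2092 and 659 CPM, and their part in the median was not tested. None of the 7 passed 2-fold in either direction, where 1.49% of all genes did so upwards and 3.60% downwards.

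**Figure D4:**
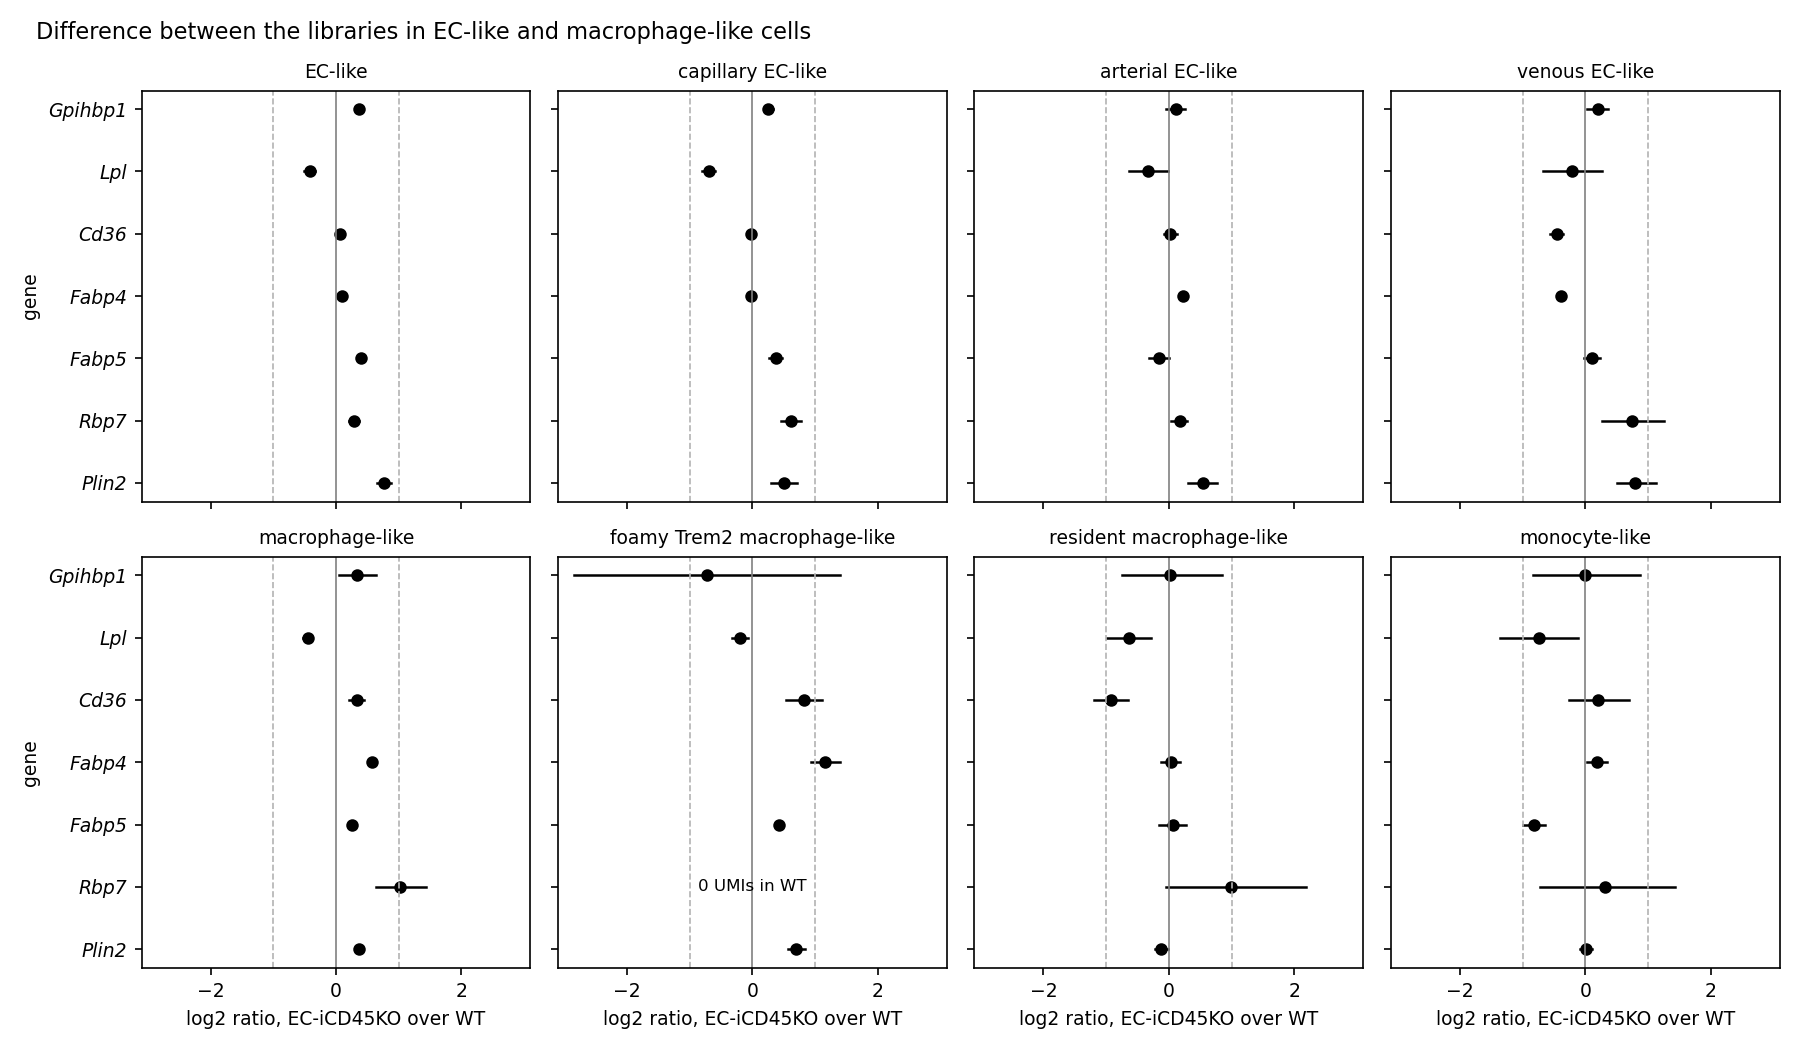
Log2 ratio of EC-iCD45KO over WT for each of the 7 genes in EC-like and macrophage-like cells and 6 of their subtypes, with exact 95% intervals for counting error. The dashed lines mark 2-fold. Lpl lies left of 0 and Plin2 right of 0 in all 4 endothelial panels, with the Lpl interval of venous EC-like cells (-0.67 to 0.26) reaching across 0.

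Lpl was also lower in EC-iCD45KO in the EC-like subtype with its highest level. In capillary EC-like cells it stood at 1289 and 796 CPM, for a ratio that came to -0.70 (-0.80 to -0.59), while Gpihbp1 gave 0.25 (0.18 to 0.32), Cd36 -0.02 (-0.08 to 0.04) and Fabp4 -0.02 (-0.03 to 0.00). Of 9 EC sub-clusters, 7 had less Lpl in EC-iCD45KO, 5 of them beyond counting error, with the lowest ratio in EC 6 (-1.03), and none had more beyond it. The Lpl ratio was -0.54 in the 743 and 463 EC-like cells that had no UMI of a macrophage marker. Rbp7 gave 0.62 (0.46 to 0.77) in capillary and 0.75 (0.27 to 1.25) in venous EC-like cells, but -0.32 in EC 8, where it is highest. In capillary EC-like cells, too, none of the 7 passed 2-fold, as 3.01% of 10523 genes did upwards and 4.58% downwards. Macrophage markers summed to 3215 CPM in capillary EC-like cells of WT and 2233 CPM in those of EC-iCD45KO, so this RNA moved in the direction of Lpl there, and its part was not tested.

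Plin2 was higher in EC-iCD45KO beyond counting error in all 9 EC sub-clusters, with ratios from 0.36 in EC 8 to 1.26 in EC 2, and in all 13 named classes, from 0.36 in macrophage-like to 2.01 in lymphatic EC-like cells. The ratio in B-like cells was 1.63 and in T/NK-like cells 1.34, above the ratio in EC-like cells. Macrophage-like cells, the class richest in Plin2, made up 9.43% of the analysed cells in WT and 37.2% in EC-iCD45KO. The ratio was 0.56 in the 743 of 3714 WT and 463 of 3990 EC-iCD45KO EC-like cells without a macrophage marker UMI, cells picked by their own counts, against 0.76 in all of them. The part of macrophage RNA in the Plin2 ratio was not tested. The 3 sub-clusters past 2-fold, EC 2, EC 1 (1.17) and EC 3 (1.15), were unnamed and had immune genes among their leading genes (Ccl4, C1qb and C1qa in EC 2, Cd74, Ctss and C1qb in EC 1, Spp1, Gpnmb and Cd68 in EC 3). EC 3 held the highest Plin2 among the 9 in EC-iCD45KO (402 CPM). Among EC-like cells, those holding a Plin2 UMI made up 13.2% and 22.1% after thinning and 21.0% and 33.2% before, and among B-like cells 1.45% and 5.14% after thinning and 2.96% and 10.7% before.

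**Figure D5:**
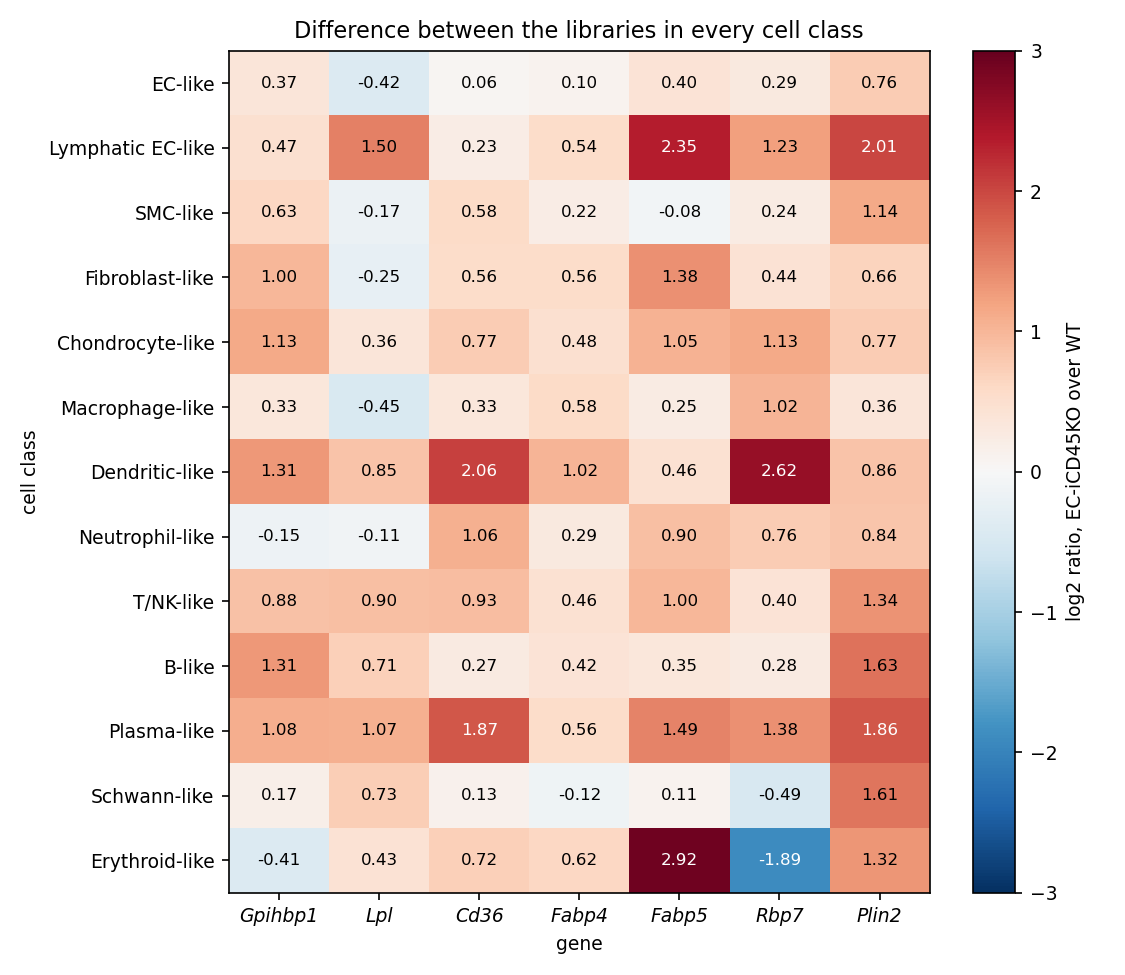
Log2 ratio of EC-iCD45KO over WT for each gene (columns) in each named class (rows), with the value printed in each cell and red for higher in EC-iCD45KO. The Plin2 column is positive in all 13 classes, and the Lpl column is negative in 5 of them, with EC-like at -0.42 and macrophage-like at -0.45.

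In macrophage-like cells several differences depended on which sub-clusters were counted. Macrophage 2 held most cells in WT (1057), and Macrophage 1, with a median of 712 UMIs, held most in EC-iCD45KO (2840). Plin2 went from 536 to 686 CPM (ratio 0.36), Fabp5 from 919 to 1096 CPM (0.25), Fabp4 gave 0.58, Cd36 and Gpihbp1 0.33 each and Lpl -0.45 (-0.52 to -0.38). Rbp7, at 4.75 and 9.65 CPM, was the single gene of the 7 past 2-fold upwards, where 0.735% of 9528 genes were, and its level could not be told apart from that of B-like cells. None was past 2-fold downwards, as 1.65% of genes were. The median of the 7 was 0.33, against -0.04 over all genes tested, lower than in B-like (0.42), T/NK-like (0.90) and dendritic-like (1.02) cells and higher than in Schwann-like (0.13), SMC-like (0.24) and EC-like (0.29) cells. In the named subtypes alone (1328 and 2538 cells) it was -0.07, and Plin2 was at -0.01, Fabp5 at -0.13, Cd36 at -0.12 and Gpihbp1 at -0.07. Macrophage 6, rich in Plin2 and Fabp5, held 210 WT and 1203 EC-iCD45KO cells. Lpl kept its direction, at -0.66 in the named subtypes, -0.64 (-0.99 to -0.28) in resident, -0.74 (-1.36 to -0.12) in monocyte-like and -0.20 (-0.33 to -0.07) in foamy cells. Macrophage 6 was the exception, at 0.39.

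In resident cells Cd36 stood at 76.2 and 40.2 CPM, for a ratio that came to -0.92 (-1.19 to -0.65), while in foamy cells it stood at 186 and 327 CPM, for a ratio that came to 0.82 (0.54 to 1.11). Whether these ratios differ between the subtypes beyond the spread of animals was not tested. In foamy cells Plin2 gave 0.70 (0.56 to 0.84), Fabp5 0.42 (0.36 to 0.47) and Fabp4 1.16 (0.93 to 1.39), from 267 to 595 CPM. Fabp4 was the single gene of the 6 with at least 5 CPM past 2-fold upwards, beside 5.68% of all genes. B-like cells, the guide to free RNA, held Fabp4 at 255 and 341 CPM. The unnamed Macrophage 3 gave the same Fabp4 ratio of 1.16, from 452 to 1014 CPM. The part of free RNA in the foamy Fabp4 ratio was not tested. In monocyte-like cells Fabp5 stood at 279 and 159 CPM, for a ratio that came to -0.82 (-0.99 to -0.65), and Plin2 was level at 631 and 633 CPM.

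In lymphatic EC-like cells (239 and 218) Fabp5 stood at 79.2 and 404 CPM, for a ratio that came to 2.35 (1.85 to 2.90), Plin2 at 55.7 and 224 CPM (2.01), Lpl at 51.4 and 146 CPM (1.5) and Rbp7 at 25.7 and 60.1 CPM (1.23). These 4 of 7 were past 2-fold upwards, beside 9.74% of 11248 genes in this class. The 10 macrophage markers summed to 1644 and 4607 CPM in the same cells and the fibroblast markers to 2010 and 517 CPM, and their part was not tested. Fibroblast-like cells had 1 of the 7 past 2-fold upwards, Fabp5 at 120 and 311 CPM (1.38, 1.24 to 1.53), where 1.69% of 11075 genes were. Macrophage markers summed to 3002 and 3725 CPM there. Such counts were not limited to these classes, since 6 of the 7 were past 2-fold upwards in plasma-like cells, beside 11.8% of all genes, 4 in dendritic-like cells, beside 2.98%, and 3 in chondrocyte-like cells, beside 6.76%. The plasma-like values of EC-iCD45KO rest on 75 cells, with 7 UMIs of Rbp7, 15 of Gpihbp1 and 18 of Lpl. In the other direction, Rbp7 stood at 64.6 and 17.4 CPM in erythroid-like cells, for a ratio that came to -1.89 (-3.45 to -0.60).

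The other genes of fatty acid handling numbered 73, and 24 of them reached 50 CPM in EC-like or macrophage-like cells. Of the 24, 7 were at least 2-fold higher in EC-like cells in both libraries, beside 18.0% of 4265 genes at that level, 3 in macrophage-like cells, beside 11.2%, and 14 in neither. The lipolytic enzyme Mgll stood at 782 and 997 CPM in EC-like and 15.3 and 19.1 CPM in macrophage-like cells, and the nuclear receptor Pparg at 221 and 225 against 38.6 and 39.2 CPM. Cav1 of caveolae stood at 611 and 732 against 11.9 and 18.6 CPM. Higher in macrophage-like cells were Apoc2, an activator of lipoprotein lipase, at 53.0 and 110 against 7.64 and 28.8 CPM, and Soat1, which makes cholesteryl ester, at 69.4 and 83.1 against 25.5 and 30.4 CPM. These genes were picked after their values were seen.

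Between the libraries, 3 of 45 listed genes with at least 5 CPM in EC-like cells were past 2-fold upwards, beside 1.49% of all genes, and none downwards, beside 3.60%. Their median ratio was 0.13, against -0.01 over all genes. The 3 were Apoc2, from 7.64 to 28.8 CPM (1.91), G0s2, from 6.76 to 14.1 CPM (1.06), and the endothelial lipase Lipg, from 5.63 to 11.6 CPM (1.04). Apoc2 was highest in macrophage-like cells, and G0s2 in neutrophil-like cells at 817 and 1175 CPM. In EC-like cells the macrophage markers summed to 2812 and 3647 CPM and the 8 neutrophil markers to 110 and 234 CPM, and their part in both ratios was not tested. Among genes of at least 50 CPM the highest ratios were those of Mgll (0.35, 0.30 to 0.40), Angptl4 (0.33, 0.15 to 0.51) and the lysosomal lipase Lipa (0.30, 0.15 to 0.45). The lowest were the oxidation enzyme Acadl (-0.21), the triglyceride lipase Pnpla2 (-0.20) and Sel1l (-0.10), which serves the maturation of lipoprotein lipase. The 9 mitochondrial oxidation genes measured had a median of 0.03 and the 4 lipid droplet genes 0.34. In capillary EC-like cells 43 genes were measured with a median of 0.13. There Slc27a3, Apoc2 and Fitm2 were past 2-fold upwards and Gpam and Ppargc1b downwards, each on 15 UMIs or fewer per library except Apoc2, beside 3.01% and 4.58% of all genes. Angptl4 went from 96.1 to 139 CPM (0.53, 0.21 to 0.86). Lipg, with a mean below 5 CPM there, moved against its direction in the whole EC-like class. It went from 7.33 to 1.1 CPM (-2.74, -5.99 to -0.47), on 9 and 2 UMIs.

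In macrophage-like cells 42 genes of the list were measured, with a median of -0.09. Apoc2, from 53.0 to 110 CPM (1.05, 0.93 to 1.17), was the only one past 2-fold upwards, beside 0.735% of all genes, and none passed it downwards, beside 1.65%. Among genes of at least 50 CPM the next were Acsl4 (0.47) and Hilpda (0.40), a droplet protein that inhibits lipolysis, and the lowest were Acadm (-0.44), Lipa (-0.29) and Acsl1 (-0.23). In foamy cells 38 genes of the list were measured, with a median of -0.19. There 4 were past 2-fold upwards, beside 5.68% of all genes (Hilpda, Apoc2, Cav1 and Ppard), and 2 downwards, beside 6.99% (Fabp3 and Acadm). Hilpda went from 20.0 to 93.9 CPM (2.23, 1.45 to 3.11), on 15 and 117 UMIs, and the oxidation enzymes Acadm and Acadvl gave -1.08 (-1.57 to -0.60) and -0.88 (-1.48 to -0.28). Soat1 gave 0.49 (0.13 to 0.87), the acyl-CoA carrier Dbi 0.26 (0.01 to 0.52) and Pnpla2 -0.52 (-1.03 to 0.00). These values rest on 80 and 125 cells of 1 library each.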

How the data were processed

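The data are whole-number UMI counts per gene and cell barcode, deposited by the authors as matrices that Cell Ranger 7.1.0 wrote, per the file headers, with build mm10 per the submitters' processing notes. Cell calling and intronic counting are not given in the sources used here. Barcodes were kept from 300 detected genes upwards with mitochondrial UMIs up to 10% (39503 WT, 28960 EC-iCD45KO). Scrublet's own threshold marked 2 and 0 cells and had not worked, so in each library the top 10% by doublet score was removed. Both libraries were clustered together in scanpy 1.11.5 (2000 variable genes, 30 principal components, 20 neighbours, Leiden at resolution 1) without the 7 genes and the 73 listed ones. A cluster was named where its markers' mean log2 excess was at least 1 with a lead of 0.75. Subtypes needed 0.75 and 0.5. They also needed more of their 10 leading genes from their own list than from any other, the list of their class aside. EC 2, EC 3, EC 6, EC 12 and Macrophage 1 met the 2 thresholds but not this rule and stayed unnamed. A class needed at least as many leading genes from its own list as from any other. All names needed at least 50 cells and 3 detected markers. Both pairs of thresholds were chosen on these data. The 7 genes and all lists were chosen with earlier results of these data known.

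Each gene's UMIs were summed per type and library and scaled to the total of that type (CPM). Each group had 1 library, so groups were compared without a test or p-value. Intervals are at 95%, with levels given exact Poisson, shares exact Clopper-Pearson and ratios exact conditional binomial ones, for counting error only, and the ratio interval was tested on simulated data. Shares were taken after thinning to 1000 UMIs. A gene was called with a mean of at least 5 CPM and a 2-fold ratio. All 7 genes were named in every type. Of the listed genes with at least 50 CPM the 3 highest and 3 lowest ratios per class were named. Positions are from GENCODE M21 (GRCm38). TMM factors came from edgeR 4.0.16.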

Additional observations from a re-analysis of the deposited data

How the results depend on the processing

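No paired analysis was possible because WT and EC-iCD45KO share only 1 replicate number, with 1 library each. Alternatives without barcodes found in both libraries, without cells holding a UMI of the other class's markers and with named subtypes only were added after seeing the data. The median of the 7 genes in EC-like cells (0.29) was 0.19 at Leiden resolution 2, 0.15 with equal weights for sub-clusters, 0.42 in cells without a macrophage marker UMI and 0.16 in named subtypes. It stayed inside its counting interval under the other 8 alternatives. The median in macrophage-like cells (0.33) turned to -0.07 in named subtypes and stayed inside its interval under the other 11, and the median of the 73 listed genes in EC-like cells (0.13) stayed inside its interval under all 12. The class with the highest level held for 14, 13, 14, 14 and 12 of the 14 gene and library pairs under the 5 alternatives run. In EC-like cells Cd36 (0.06) turned to -0.05 at resolution 2, -0.11 with equal weights, -0.01 without adipocyte marker UMIs and -0.03 in named subtypes, and Fabp4 (0.10) to -0.01 at resolution 2 and -0.06 with equal weights. In macrophage-like cells named subtypes alone turned Gpihbp1 to -0.07, Cd36 to -0.12, Fabp5 to -0.13 and Plin2 to -0.01. The cause was not tested. The number of cells limits the foamy and lymphatic EC-like values, which rest on 80 to 239 cells.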

Other observations

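Among EC-like sub-clusters too small for the comparisons, EC 10 (33 and 86 cells, led by Igfbp5, Meis2 and Plpp1) held Gpihbp1 at 1057 CPM (901 to 1233) for WT and 1011 CPM (888 to 1147) for EC-iCD45KO, above every arterial and venous sub-cluster, with Lpl at 84.8 and 54.3 CPM. Its Lpl level was thus below that of EC 8 in both libraries while its Gpihbp1 level was above it. Cd36 stood there at 920 and 439 CPM and Fabp4 at 5971 and 5688 CPM.

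Lymphatic EC-like cells held more Gpihbp1 for their Fabp4 than blood EC-like cells did, at 21.5 and 20.6 Gpihbp1 UMIs per 100 Fabp4 UMIs against 6.07 and 7.34. Angiogenic EC-like cells gave 18.2 in EC-iCD45KO, on 49 Gpihbp1 UMIs in 83 cells, and held 13 cells in WT. Of the UMIs of the 7 genes, Gpihbp1 made up 12.2% and 12.5% in EC 10 and 13.2% and 9.95% in lymphatic EC-like cells. Fabp4 made up 68.9% and 70.4% against 61.2% and 48.4%. Fabp4 stood at 777 and 1126 CPM in lymphatic EC-like and 700 and 1028 CPM in fibroblast-like cells, and the part of free RNA was not tested.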
